A study of Rattus norvegicus with 174 samples.

Results

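The hearts of rats that had inhaled phosphine were compared with those of rats that had breathed air, 24 h after the exposure. The 8 arrays, 4 of exposed and 4 of air rats, were chosen by the tissue, exposure and time in their titles from the 174 arrays of the series, 30 of them of heart. All animals were adult male Sprague-Dawley rats, an outbred stock. Phosphine (PH3), a fumigant gas, was inhaled with the whole body exposed to 660 ppm during 32.2 min, which is 0.91 of the concentration-time product expected to kill the median animal (LCt50). Control rats (Air) had 0 ppm. The exposed rats are called Rat741, Rat742, Rat748 and Rat749, and the air rats Rat744, Rat745, Rat750 and Rat751. Which chambers of the heart were taken is not given in the sources used here. Hearts taken 1, 3 and 6 h after the same exposures, from other rats, serve only to set the 24 h values in time.

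Phosphine inhibits cytochrome oxidase of the mitochondrial respiratory chain, and the heart, which works on oxidative metabolism, is a main target of the gas. Injured heart muscle is cleared by macrophages, some resident and some derived from blood monocytes that carry the receptor CCR2. Macrophages that take up debris fill with lysosomes and make osteopontin (Spp1) and the glycoprotein Gpnmb. Surviving cardiomyocytes under strain switch on genes of fetal or stretched muscle, among them skeletal alpha-actin (Acta1), ankyrin repeat proteins and the nicotinamide riboside kinase Nmrk2.

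The signal of each probe set is on a log2 scale, so that a difference of 1 is a doubling. Differences are exposed minus air hearts, with the SE from limma fitted over the 30 heart arrays, and padj is limma's p with Benjamini-Hochberg adjustment over 13437 genes. A gene was called at a padj under 0.05. The p-values rest on the spread between rats within groups, pooled over the 30 heart arrays and not taken from the 8 compared alone. Limma called 11 genes, 0.0819% of those tested. Of these, 10 rose (0.0744%), namely Nmrk2, Spp1, Gpnmb, Lilrb4, Clec7a, Cd68, Serpinb1a, Clec4a3, Tlr8 and Acta1, and 1 fell (0.00744%), Rab3b. At least a 2-fold change was seen in 9 of them. With each array centred on its own median the split was 7 higher and 3 lower. At an unadjusted p under 0.05 stood 1022 genes (7.61%), 473 higher (3.52%) and 549 lower (4.09%). The groups did not overlap in 956 genes (7.11%), 363 of them higher (2.7%) and 593 lower (4.41%).

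The number called moved with single rats. It was 32 without Rat741 (0.238% of all genes, with 0.208% called higher), 6 without Rat742, 4 without Rat749, 4 without Rat744, 5 without Rat745, 6 without Rat750 and 6 without Rat751. Leaving out Rat729, an exposed rat of 3 h that enters only through the shared spread, gave 63. Fitted on the 8 arrays of 24 h alone, with fewer arrays behind the spread, limma called 0, with 1322 genes (9.84%) at an unadjusted p under 0.05, and without Rat741 it called 39.

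Some heart arrays carried transcripts of other organs. On the array of Rat741 the mean of 18 hepatocyte markers was 12.02, against a median of 4.17 over the 30 heart arrays. The albumin gene Alb read 3.54, 8.96, 3.92 and 10.48 in Rat744, Rat745, Rat750 and Rat751 and 13.89, 3.63, 10.22 and 10.31 in Rat741, Rat742, Rat748 and Rat749. Rat741 was the highest, and both groups held rats near the low end and rats well above it. On the array of Rat749 the mean of 13 alveolar markers was 8.98, against a heart median of 4.02. The surfactant gene Sftpc read 2.81, 5.49, 2.86 and 2.89 in the air rats and 2.64, 2.92, 2.65 and 12.11 in the exposed rats, so that Rat749 stood far above all others and the air rat Rat745 somewhat above the rest. At 3 h the array of Rat729 had a hepatocyte mean of 12.37. Ventricular cardiomyocyte markers were at a mean of 11.95 to 12.01 in air and 11.80 to 11.93 in exposed hearts. Every exposed heart thus lay slightly below every air heart, and the part of other-organ RNA in this was not tested.

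The 3' minus 5' signal of 3 control transcripts grows as RNA is degraded. Its mean was 0.496 ± 0.0657 in air and 0.582 ± 0.115 in exposed hearts (SD, n = 4 each, two-sided exact permutation p = 0.286, 0.0286 being the smallest possible). For GAPDH alone the difference was 0.112 (exact permutation p = 0.0286, or 0.114 adjusted over 4 such tests). The part of RNA quality in the results was not tested.

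**Figure D1:**
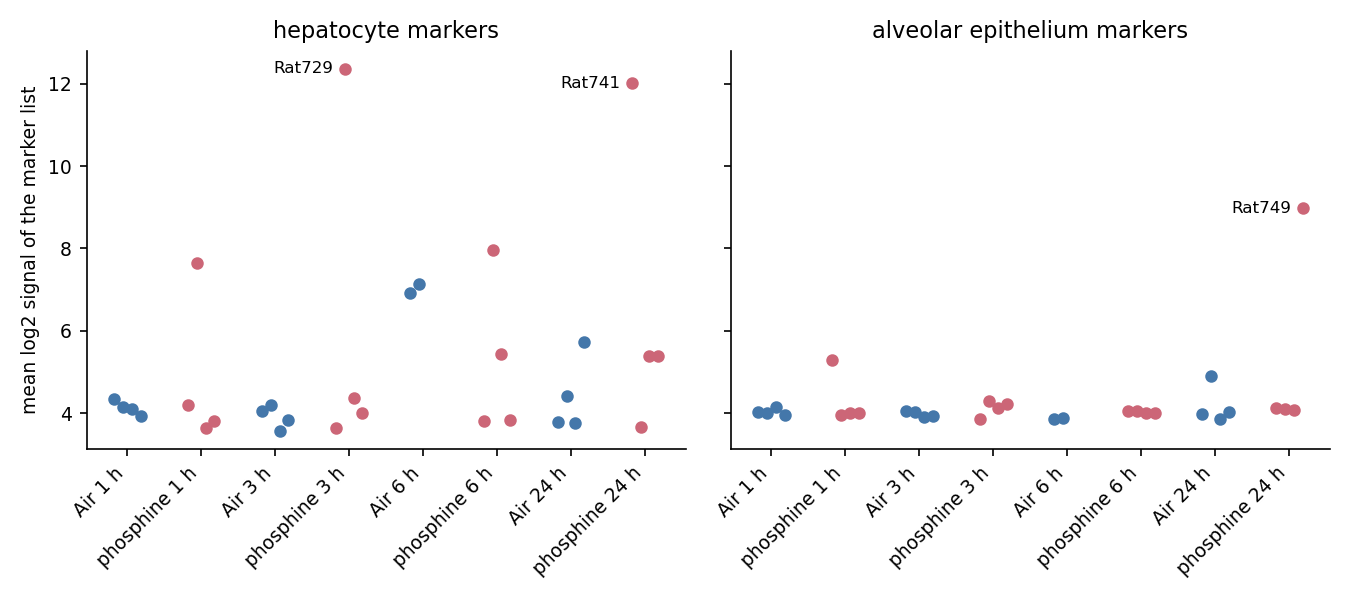
Mean log2 signal of 18 hepatocyte markers (left) and 13 alveolar markers (right) on each of the 30 heart arrays, by exposure and hours after it, with air in blue and phosphine in red. Rat741 (12.02) and Rat729 (12.37) stand apart on the left, and Rat749 (8.98) on the right.

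The calls were followed without these arrays. Without Rat741 and Rat749 they were 10, all higher (0.0744%), with 6 of the 11 genes kept (Gpnmb, Nmrk2, Lilrb4, Spp1, Clec4a3 and Clec7a). Without Rat729 and Rat741 they were 77 (0.573%), 54 higher (0.402%) and 23 lower, with all 11 kept. Without Rat729, Rat741 and Rat749 they were 26 (0.193%), 21 of them higher (0.156%), with 10 kept and Tlr8 lost. With the hepatocyte marker level as a covariate they were 18, with all 11 kept.

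Genes that mark debris-laden macrophages were among those that rose most. Gpnmb, a membrane glycoprotein of lysosome-rich phagocytes, read 5.90, 6.23, 6.48 and 6.24 in the air rats and 7.45, 9.13, 9.28 and 10.09 in Rat741, Rat742, Rat748 and Rat749. Every exposed rat lay above every air rat, with Rat741 the lowest and Rat749 the highest. Gpnmb rose by 2.78 ± 0.31 (95% interval 2.14 to 3.42, 6.86-fold, padj = 3.19e-05).

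Spp1 encodes osteopontin, a secreted adhesive phosphoprotein of wound macrophages. It read 6.15, 5.67, 6.66 and 5.85 in the air rats and 7.57, 9.51, 9.33 and 10.16 in the exposed rats, again apart, with Rat741 lowest and Rat749 highest. Spp1 rose by 3.06 ± 0.48 (95% interval 2.07 to 4.06, 8.35-fold, padj = 0.00431). Cd68, a lysosomal membrane protein of macrophages, read 5.95, 6.0, 6.22 and 6.52 in air and 7.15, 7.39, 7.41 and 7.80 in exposed rats. The exposed rats lay closer together here than for Gpnmb and Spp1. Cd68 rose by 1.27 ± 0.23 (2.41-fold, padj = 0.0157).

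Lung and liver of the air rats show how much of these transcripts other organs hold. In air lungs at 24 h Gpnmb read 9.53 to 9.85 and Cd68 8.26 to 8.71, both above air hearts, and Spp1 4.86 to 6.77. In air livers Gpnmb read 6.52 to 7.07, Spp1 5.49 to 6.63 and Cd68 8.23 to 8.69. Without Rat741 and Rat749 the exposed hearts were those of Rat742 and Rat748, with Sftpc at 2.92 and 2.65. Their hepatocyte marker means were 3.67 and 5.39, against a median of 4.17 over the 30 heart arrays. Rat748 was thus not free of liver transcripts, nor was the air rat Rat751, at 5.74. In the fit without Rat741 and Rat749 Gpnmb stood 2.99 higher (padj = 1.52e-09), Spp1 3.34 higher (padj = 0.00239) and Cd68 1.23 higher (padj = 0.11, not called). The part of lung or liver RNA in the Cd68 result was not tested.

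**Figure D2:**
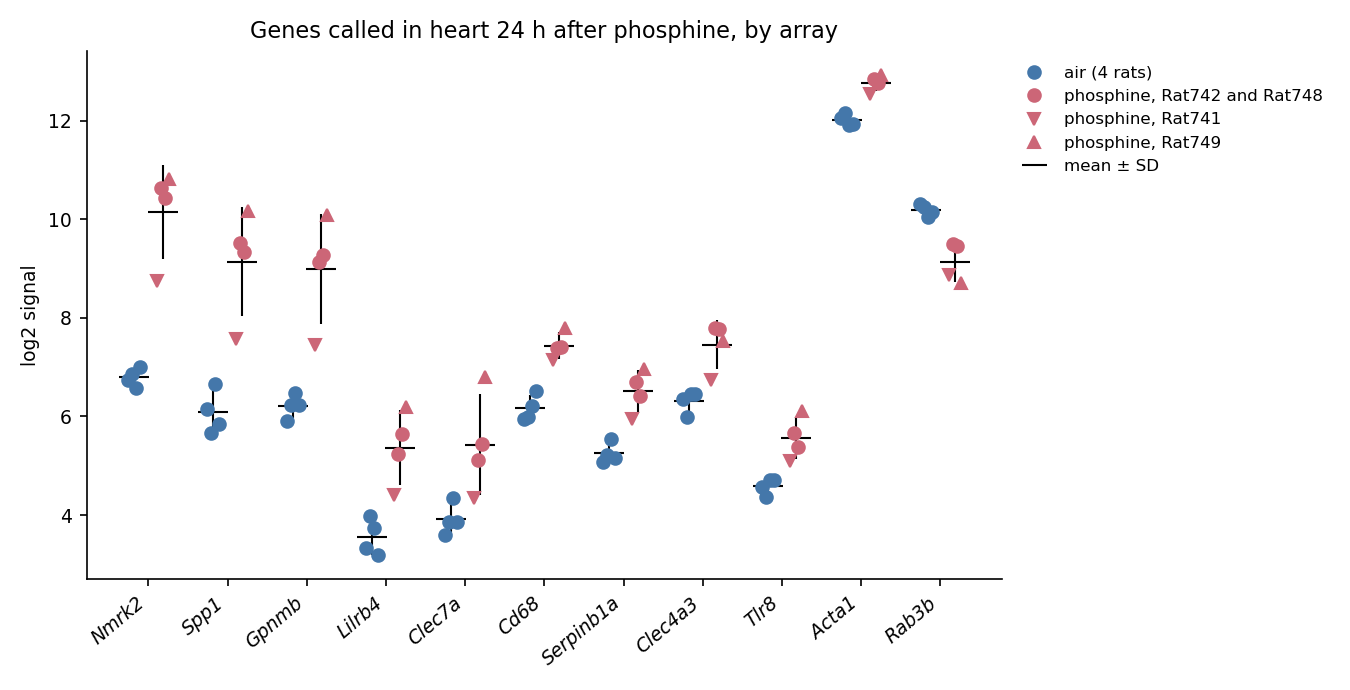
Log2 signal of the 11 called genes on each of the 8 heart arrays at 24 h, with air in blue, phosphine in red, and the group mean ± SD in black (n = 4 each). All exposed rats lie beyond all air rats for each gene, and Rat741 is the lowest exposed rat for the 10 genes that rose.

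The sequences before the starts of Gpnmb, Cd68 and Spp1 are shown because these genes moved together. Each is the 250 bases upstream of the gene start in RefSeq's annotation of build GRCr8, which held such a window for all 11 called genes. Gpnmb's lies at chr4:79340878-79341127 on the plus strand, Cd68's at chr10:54882442-54882691 on the minus strand and Spp1's at chr14:5619805-5620054 on the minus strand. Capitals mark matches, on either strand, to the AP-1 motif TGANTCA, to CACGTG or CATGTG (E-box forms read by MITF and TFE factors of lysosomal genes), to the PU.1 motif GAGGAAGT, to GGAATG (MCAT), and to the MEF2 motif and the CArG box, searched by name.
Gpnmb: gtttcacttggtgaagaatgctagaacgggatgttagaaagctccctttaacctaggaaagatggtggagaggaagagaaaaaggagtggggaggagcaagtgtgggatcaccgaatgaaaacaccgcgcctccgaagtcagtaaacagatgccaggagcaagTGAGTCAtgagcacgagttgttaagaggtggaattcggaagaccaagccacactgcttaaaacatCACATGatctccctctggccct
Cd68: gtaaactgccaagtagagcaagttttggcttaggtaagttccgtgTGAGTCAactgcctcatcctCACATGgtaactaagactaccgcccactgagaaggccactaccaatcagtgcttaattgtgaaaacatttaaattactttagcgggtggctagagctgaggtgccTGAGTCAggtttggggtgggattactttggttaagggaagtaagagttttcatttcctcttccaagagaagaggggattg
Spp1: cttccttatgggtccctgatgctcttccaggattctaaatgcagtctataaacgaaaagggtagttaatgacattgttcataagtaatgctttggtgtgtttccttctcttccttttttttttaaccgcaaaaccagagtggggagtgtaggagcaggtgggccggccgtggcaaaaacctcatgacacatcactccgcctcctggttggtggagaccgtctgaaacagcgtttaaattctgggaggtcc
Gpnmb held an AP-1 match from -87 to -81 and an E-box match from -22 to -17, counted from the gene start. Cd68 held 2 AP-1 matches, from -205 to -199 and from -80 to -74, and an E-box match from -185 to -180. The Spp1 window held none of the motifs. Of 27457 RefSeq windows of this length 6.36% held the AP-1 motif and 17% an E-box form. A match describes letters only.

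The phagocyte lysosome list holds enzymes, membrane proteins and products of phagocytes. This list and those below were chosen with earlier results of these data known, so their counts and medians describe and are not independent support. Of 27 measured members of the phagocyte lysosome list 3 rose (Gpnmb, Spp1 and Cd68) and 0 fell. The median difference was 0.24, against -0.01 over all genes. At an unadjusted p under 0.05, 10 members stood higher and 0 lower, against 3.52% higher over all genes. The groups did not overlap in 9 members, all higher, where 2.7% of all genes were higher without overlap. Besides the 3 called these were the cathepsin Ctsz (0.75 ± 0.16, padj = 0.088), the lipid droplet coat protein Plin2 (0.89 ± 0.22, padj = 0.136), the macrophage elastase Mmp12 (0.66 ± 0.17, padj = 0.184), the acid lipase Lipa (0.60 ± 0.16, padj = 0.193), the cathepsin Ctss (0.44 ± 0.13, padj = 0.276) and the hexosaminidase subunit Hexa (0.14 ± 0.12, padj = 0.805). The other 2 Plin2 probe sets differed by 0.38 ± 0.17 and 0.51 ± 0.30. Lysosomal genes shared by all cells were close to air, with Lamp1 at -0.07 ± 0.08, Ctsb at 0.04 ± 0.07, Ctsl at 0.03 ± 0.09 and Ctsd at -0.16 ± 0.09. The lipid receptor gene Trem2 (0.52 ± 0.31, padj = 0.732) and apolipoprotein Apoe (1.01 ± 0.55, padj = 0.717) were not called, and Apoe, also a hepatocyte transcript, was at 0.37 without Rat741. A second, dim Trem2 probe set (mean signal 3.91) differed by 0.68 ± 0.23 (limma, unadjusted p = 0.00625). Without Rat741 the list's median was 0.33 and 4 members were called, with Ctsz added (0.87, padj = 0.015). Without Rat729 and Rat741 it had 6, with Plin2 (0.74, padj = 0.0277) and Mmp12 (0.79, padj = 0.0361). Without Rat741 and Rat749 the median was 0.25 and 2 members were called, Gpnmb and Spp1, with Ctsz at 0.78 (padj = 0.186). Without Rat729, Rat741 and Rat749 there were 4, with Plin2 (0.71, padj = 0.149) and Mmp12 (0.74, padj = 0.203) not among them.

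Surface receptors of myeloid cells rose as well. Lilrb4, an inhibitory immunoglobulin-like receptor, read 3.32, 3.98, 3.74 and 3.19 in the air rats and 4.41, 5.23, 5.65 and 6.19 in the exposed rats. No air rat reached the lowest exposed rat, Rat741. Lilrb4 rose by 1.81 ± 0.27 (3.51-fold, padj = 0.0028). Clec4a3, a C-type lectin, read 6.36, 5.99, 6.46 and 6.46 in air and 6.74, 7.79, 7.78 and 7.52 in exposed rats, with Rat742 the highest. Clec4a3 rose by 1.14 ± 0.20 (2.2-fold, padj = 0.0133). Clec7a, the beta-glucan receptor dectin-1, read 3.59, 3.86, 4.34 and 3.87 in air and 4.34, 5.11, 5.44 and 6.81 in exposed rats. The air rat Rat750 and Rat741 almost met, and Rat749 stood well above the other exposed rats. Clec7a rose by 1.51 ± 0.30 (2.85-fold, padj = 0.0457). Air lungs read 9.44 to 9.74 for Clec7a, 6.52 to 7.33 for Lilrb4 and 7.01 to 7.61 for Clec4a3. Without Rat741 and Rat749 the differences were 1.37 (padj = 0.00342) for Clec7a, 1.88 (padj = 0.000845) for Lilrb4 and 1.47 (padj = 0.000845) for Clec4a3.

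Tlr8, an endosomal receptor for RNA, read 4.57, 4.36, 4.70 and 4.72 in air and 5.09, 5.66, 5.38 and 6.11 in exposed rats, and rose by 0.97 ± 0.19 (1.96-fold, padj = 0.0457). Serpinb1a, an inhibitor of neutrophil proteases, read 5.08, 5.22, 5.55 and 5.16 in air and 5.95, 6.71, 6.42 and 6.96 in exposed rats, and rose by 1.26 ± 0.23 (2.39-fold, padj = 0.0175). For both, Rat741 was the lowest exposed rat and lay above every air rat. A second Serpinb1a probe set differed by 0.69 ± 0.23. Air lungs read 6.67 to 7.05 for Tlr8 and 9.33 to 9.95 for Serpinb1a, and without Rat741 and Rat749 the differences were 0.93 (padj = 0.107) and 1.31 (padj = 0.0508), neither called. Just outside the threshold lay Evi2b, a membrane gene of myeloid cells (0.97 ± 0.20, padj = 0.053). Unc93b1, which carries endosomal Toll-like receptors (0.82 ± 0.17, padj = 0.0688), and the lysosomal thiol reductase Ifi30 (0.45 ± 0.10, padj = 0.0968) were not called either. Nor were the leukocyte tetraspanin Cd53 (0.65 ± 0.14, padj = 0.0968) and the receptor signalling chain Fcer1g (0.60 ± 0.14, padj = 0.112). For Unc93b1, Ifi30, Cd53 and Fcer1g every exposed rat lay above every air rat, which is likely for genes picked by small p on these arrays.

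In the myeloid receptors list 18 members were measured, 3 rose (Lilrb4, Clec4a3 and Clec7a) and 0 fell, with a median of 0.45. At an unadjusted p under 0.05, 12 stood higher and 0 lower, against 3.52% higher over all genes. Among these, and not called, were Tyrobp, the partner chain of many such receptors (0.48 ± 0.13, padj = 0.178), the integrin Itgb2 (0.79 ± 0.23, padj = 0.27), the antibody receptor Fcgr1a (0.69 ± 0.20, padj = 0.265) and the lipopolysaccharide receptor Cd14 (0.72 ± 0.34, padj = 0.633). Tlr2 (0.24 ± 0.22), Tlr4 (0.17 ± 0.23), Cd44 (0.06 ± 0.21) and the fatty acid carrier Cd36 (-0.09 ± 0.14), abundant in cardiomyocytes, were not called. Without Rat741 10 members stood higher at an unadjusted p under 0.05, beside 626 of all 13437 genes. Without Rat741 and Rat749 the list's median was 0.47 with 3 called.

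Of 11 monocyte markers measured, 0 were called. At an unadjusted p under 0.05, 5 stood higher, against 3.52% of all genes, and the list's median was 0.57. That median was 0.41 without Rat741, with 4 called, and 0.30 without Rat741 and Rat749, with 0 called. Ccr2, the chemokine receptor of incoming monocytes, read 2.91, 3.68, 3.37 and 3.69 in the air rats and 3.78, 5.33, 5.19 and 5.20 in Rat741, Rat742, Rat748 and Rat749. Rat741 was close to the air rats and the other exposed rats were well apart from them. The Ccr2 difference was 1.46 ± 0.36 (padj = 0.135). It was 1.83 (padj = 0.0101) without Rat741 and 1.85 (padj = 0.0733) without Rat749 as well, where the call was lost. The lysozyme gene Lyz2 (1.09 ± 0.30, padj = 0.2), the calcium-binding S100a4 (0.71 ± 0.22, padj = 0.32) and the oxidase subunit Cybb (0.77 ± 0.18, padj = 0.119) were likewise called without Rat741, at 1.47 (padj = 0.00458), 1.01 (padj = 0.00607) and 0.88 (padj = 0.0466). They were not called without Rat749 as well, at 1.0 (padj = 0.0531), 0.88 (padj = 0.107) and 0.78 (padj = 0.359).

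Of 15 resident macrophage markers 1 rose, Cd68. The list's median was 0.25, or 0.15 without Rat741 and Rat749. At an unadjusted p under 0.05, 5 of the markers stood higher, against 3.52% of all genes. They include the mannose receptor Mrc1 (0.61 ± 0.15, padj = 0.136), the growth factor receptor Csf1r (0.38 ± 0.11, padj = 0.261) and the folate receptor Folr2 (0.56 ± 0.16, padj = 0.265). The mean level of these markers ran from 6.37 to 6.63 in air and from 6.64 to 6.85 in exposed hearts, and that of the monocyte markers from 6.71 to 6.93 and from 7.19 to 7.73. Neither pair of ranges overlapped, but the resident macrophage ranges nearly met, at 6.635 in air and 6.638 in exposed hearts. The resident macrophage mean includes Cd68, a gene called on these same arrays, and was not computed without it. In whole tissue, more cells of a type and more RNA per cell cannot be told apart.

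No marker of other leukocytes was called. Of 8 neutrophil markers none stood at an unadjusted p under 0.05, and their mean level overlapped (3.47 to 3.68 in air, 3.46 to 3.72 exposed). Of 16 T and NK cell markers 1 and of 7 B cell markers 2 stood higher at an unadjusted p under 0.05. Of 30 chemokines and cytokines 0 were called. The lowest p were those of Il1rn, the interleukin-1 receptor antagonist (0.59 ± 0.20, padj = 0.401), Ccl6 (0.68 ± 0.24, padj = 0.425) and the interferon-induced Cxcl11 (-0.80 ± 0.30, padj = 0.47). Of 22 interferon response genes 0 were called, with Irf7 at -0.88 ± 0.27 (padj = 0.324) and Isg15 at -0.69 ± 0.27 (padj = 0.477).

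The genes whose values over the 30 heart arrays were most like those of Spp1 were Gpnmb (Pearson r = 0.86), Lilrb4 (0.82), Clec7a (0.80), Clec4a3 (0.79) and Arl11 (0.77), a small GTPase of macrophages. The arrays include the 8 on which 4 of these genes and Spp1 were called, so this is a description.

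Among cardiomyocyte genes few rose. Nmrk2, which phosphorylates nicotinamide riboside on a route to NAD and is largely a muscle gene, read 6.73, 6.85, 6.58 and 7.0 in the air rats and 8.75, 10.63, 10.43 and 10.81 in Rat741, Rat742, Rat748 and Rat749. All exposed rats were far above the air rats, with Rat741 the nearest to them. Nmrk2 rose by 3.36 ± 0.38 (95% interval 2.57 to 4.15, 10.3-fold, padj = 3.19e-05), the largest of the 11 called changes. It read 2.50 to 2.72 in air lungs and 3.03 to 3.70 in air livers, below every heart, and without Rat741 and Rat749 it stood 3.74 higher (padj = 1.1e-05). Acta1, the skeletal form of alpha-actin, read 12.06, 12.15, 11.91 and 11.92 in air and 12.54, 12.84, 12.76 and 12.92 in exposed rats, in the upper part of the signal range. The groups were apart. Acta1 rose by 0.76 ± 0.13 (1.69-fold, padj = 0.0133), and differed by 0.79 (padj = 0.0563) without Rat741 and Rat749. It read 2.48 to 2.88 in air livers and 3.12 to 5.68 in air lungs.

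The upstream windows of Acta1 (chr19:68784195-68784444 on the minus strand) and Nmrk2 (chr7:9165317-9165566 on the plus strand) are set out beside those of the phagocyte genes, marked in the same way.
Acta1: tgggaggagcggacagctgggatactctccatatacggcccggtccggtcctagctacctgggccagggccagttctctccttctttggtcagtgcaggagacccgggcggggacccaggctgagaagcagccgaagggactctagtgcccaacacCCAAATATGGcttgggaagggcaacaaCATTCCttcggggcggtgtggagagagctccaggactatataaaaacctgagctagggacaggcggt
Nmrk2: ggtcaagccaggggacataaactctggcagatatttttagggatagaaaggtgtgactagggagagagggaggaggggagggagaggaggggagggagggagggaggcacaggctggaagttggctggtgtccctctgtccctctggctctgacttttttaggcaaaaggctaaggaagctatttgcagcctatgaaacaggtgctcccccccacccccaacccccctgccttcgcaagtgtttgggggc
Acta1 held a CArG box, the kind of site read by serum response factor, from -94 to -85, and an MCAT match, a kind of site read by TEAD factors, from -67 to -62. The Nmrk2 window held no match to any motif searched, which says only that these letters are not in it. Of all windows 1.5% held a CArG box, 11.8% an MCAT match, 3.43% the MEF2 motif and 2.04% the PU.1 motif.

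Of 24 cardiomyocyte stress genes 2 rose (Nmrk2 and Acta1) and 0 fell, with a median of 0.18. At an unadjusted p under 0.05, 7 stood higher and 0 lower, against 3.52% higher over all genes. Ankrd2, a stretch-responsive ankyrin repeat protein, read 3.27, 3.09, 2.96 and 2.99 in the air rats and 2.97, 4.98, 5.10 and 5.48 in the exposed rats. Rat741 lay among the air rats and the other exposed rats well above them. The Ankrd2 difference was 1.55 ± 0.36 (padj = 0.112), and 2.11 (padj = 8.89e-05) without Rat741 and 1.96 (padj = 0.00236) without Rat749 as well. The LIM protein gene Fhl1 showed the same split, with 10.95 to 11.12 in air and 10.96, 12.02, 11.92 and 12.20 in exposed rats. Its difference was 0.74 ± 0.18 (padj = 0.135), and 1.01 (padj = 0.000148) without Rat741, and a second Fhl1 probe set differed by 1.08 ± 0.26. The Fhl1 difference was 0.94 (padj = 0.00406) without Rat749 as well. Mustn1, a small nuclear protein of growing muscle, differed by 1.22 ± 0.32 (padj = 0.178), by 1.51 (padj = 0.0329) without Rat741 and by 1.30 (padj = 0.337) without Rat749 as well.

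The stress markers used most often in heart disease were not called. These are the natriuretic peptide genes Nppa (-0.24 ± 0.48, padj = 0.931) and Nppb (-0.25 ± 0.18, padj = 0.769), the slow myosin Myh7 (0.14 ± 0.25, padj = 0.922) and the stress cytokine Gdf15 (0.13 ± 0.51, padj = 0.968). The 95% interval for Nppb ran from -0.63 to 0.13 and that for Nppa from -1.23 to 0.74. The calcineurin inhibitor Rcan1 was at 0.19 ± 0.13, and Tnfrsf12a, the TWEAK receptor, at 0.18 ± 0.31. The ankyrin repeat gene Ankrd1 (0.24 ± 0.10, padj = 0.566) and muscle LIM protein Csrp3 (0.28 ± 0.12, padj = 0.573) stood higher at an unadjusted p only. Csrp3 was called without Rat729 and Rat741 (0.42, padj = 0.0336), one of 6 stress genes called higher there. Without Rat749 as well it was not called (0.38, padj = 0.204), and 4 were.

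In nicotinamide and NAD metabolism Nmrk2 was the only one of 22 genes called. The related kinase Nmrk1 (-0.04 ± 0.20), the rate-limiting salvage enzyme Nampt (0.02 ± 0.17), the NAD-forming enzymes Nmnat1 (-0.13 ± 0.14) and Nmnat3 (-0.26 ± 0.20), the deacylase Sirt3 (-0.17 ± 0.15) and Parp1 (-0.05 ± 0.10) were not. Kmo (1.62 ± 0.94) and Qprt (1.09 ± 0.80), enzymes of NAD synthesis from tryptophan that are high in liver, were at 0.31 and 0.07 without Rat741.

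Wound matrix genes were not called, and single ones were high in the exposed rats other than Rat741. Of 38 genes of extracellular matrix and scar 4 stood higher and 0 lower at an unadjusted p under 0.05. Over all genes 3.52% stood higher. The list's median was -0.03 (0.08 without Rat741). Timp1, an inhibitor of matrix proteases, read 7.65, 7.48, 7.49 and 7.75 in the air rats and 7.86, 9.47, 9.03 and 10.06 in the exposed rats. Rat741 was just above the air rats, and the others well above. Timp1 differed by 1.51 ± 0.37 (padj = 0.136), by 1.93 (padj = 0.007) without Rat741 and by 1.66 (padj = 0.12) without Rat749 as well. Periostin Postn (1.13 ± 0.37, padj = 0.37), a product of activated fibroblasts, was called without Rat729 and Rat741 (1.52, padj = 0.0397) and not without Rat749 as well (1.13, padj = 0.305). The 14 fibroblast markers had a median of -0.07 (0.02 without Rat741) and none stood at an unadjusted p under 0.05.

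The gene that fell was Rab3b, a small GTPase of regulated secretion. It read 10.30, 10.24, 10.04 and 10.14 in the air rats and 8.86, 9.50, 9.45 and 8.71 in Rat741, Rat742, Rat748 and Rat749. All exposed rats were below all air rats. Rat741 and Rat749, whose arrays stood apart in hepatocyte or alveolar markers, were the lowest. The Rab3b difference was -1.05 ± 0.21 (padj = 0.0457). Without Rat741 it was -0.96 (padj = 0.0743), and without Rat749 as well -0.71 (padj = 0.504). Rab3b read 4.77 to 5.17 in air lungs and 3.50 to 4.56 in air livers, below every heart, and the part of other-organ RNA in the Rab3b result was not tested.

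Next in order of p below air were the tendon and valve factor Scx (-0.77 ± 0.16, padj = 0.0688), Sh3bp5 (-0.43 ± 0.09, padj = 0.0715), the LIM protein Limd1 (-0.69 ± 0.15, padj = 0.0968), the selenoprotein Selenoh (-0.41 ± 0.09, padj = 0.0968) and the purine nucleotidase Nt5c2 (-0.55 ± 0.13, padj = 0.112). They were followed by the leucine breakdown enzyme Mccc1 (-0.47 ± 0.11, padj = 0.112), the complex III assembly factor Uqcc5 (-0.64 ± 0.15, padj = 0.112), C1h19orf81 (-0.86 ± 0.20, padj = 0.116) and the chloride channel Pacc1 (-0.69 ± 0.16, padj = 0.119). In all 9 the groups did not overlap, which is likely for genes picked by small p on these same arrays. Above air by the same rule were glutaredoxin Glrx (0.77 ± 0.17, padj = 0.088), with a second probe set at 0.74 ± 0.16, the ubiquitin ligase Rnf181 (0.45 ± 0.10, padj = 0.112) and the hydrolase Abhd1 (1.16 ± 0.27, padj = 0.119). A second Abhd1 probe set was at 0.28 ± 0.19.

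The lists of respiratory complexes, ion channels and ventricular markers had medians slightly below that of all genes (-0.01) and no called gene. Of 26 sarcomere genes 1 rose, Acta1, and 0 fell, with a median of -0.10. Of 35 genes of respiratory complexes I and II, 6 stood lower and 0 higher at an unadjusted p under 0.05, with a median of -0.14 (-0.10 without Rat741 and -0.08 without Rat749 as well). The lowest p were those of Ndufc2 (-0.29 ± 0.11, padj = 0.477), Sdhd (-0.22 ± 0.09, padj = 0.484) and Ndufv3 (-0.26 ± 0.11, padj = 0.501). Complexes III to V, which include the cytochrome oxidase that phosphine inhibits, had 2 of 33 lower at an unadjusted p and a median of -0.11 (-0.07 without Rat741). Over all genes 4.09% were lower at an unadjusted p under 0.05. Without Rat741 only 1 of the 35 and 1 of the 33 stood lower at that p, beside 400 of all 13437 genes. Without Rat729 as well 5 and 3 did, beside 587 of all genes. In 13 of the 35 genes of complexes I and II and 12 of the 33 of complexes III to V every exposed rat lay below every air rat. In 0 of either list was it the reverse. Of all genes 4.41% were lower without overlap. Ion channel and gap junction genes had 4 of 25 lower, among them connexin Gja1 (-0.36 ± 0.11, padj = 0.351) and Kcnip2, a subunit of the transient outward potassium channel (-0.36 ± 0.12, padj = 0.398), with a list median of -0.19, or -0.12 without Rat741 and Rat749. The 17 ventricular markers had a median of -0.09.

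With quantile normalization and with median centring of the arrays the medians were -0.13 and -0.22 for complexes I and II, 0.22 and 0.16 for the phagocyte lysosome list, 0.55 and 0.49 for monocytes and -0.04 and -0.09 over all genes, so these signs did not flip.

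**Figure D3:**
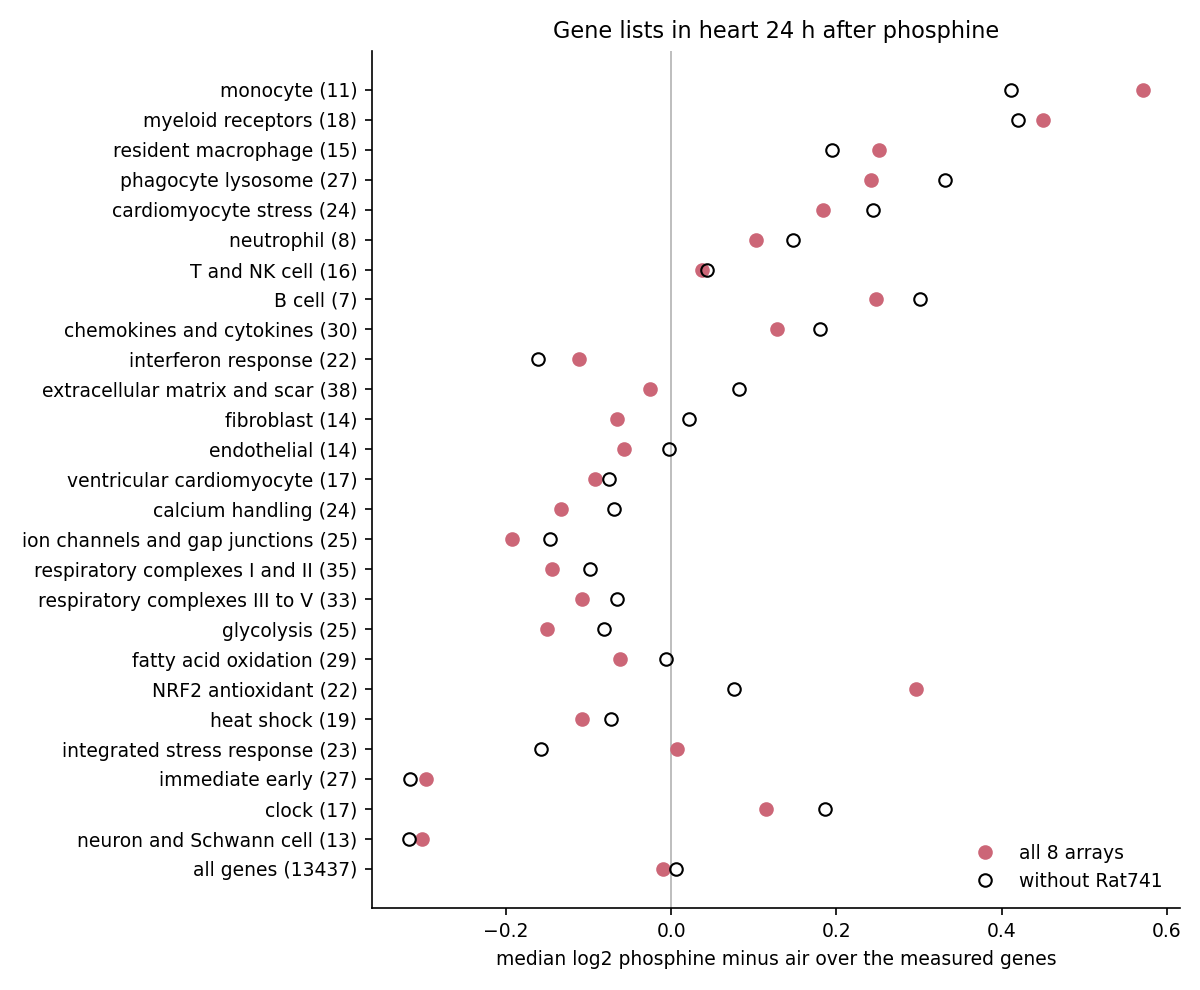
Median log2 phosphine minus air over the measured genes of each list and over all genes, with the number of genes in brackets, for all 8 arrays (red) and without Rat741 (open circles). The phagocyte lysosome, resident macrophage, myeloid receptors and monocyte lists lie at 0.24, 0.25, 0.45 and 0.57 with all arrays, and the immediate early list at -0.30.

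Other muscle genes below air were the ubiquitin ligase Trim63 of muscle atrophy (-0.62 ± 0.16, padj = 0.16), called without Rat729 and Rat741 (-0.57, padj = 0.0481) but not without Rat749 as well (-0.52, padj = 0.241), the sarcomeric Cmya5 (-0.62 ± 0.18, padj = 0.288) and the calcium regulator S100a1 (-0.44 ± 0.15, padj = 0.42). Glycolysis had 5 of 25 genes lower at an unadjusted p and none called, with Gpi (-0.35 ± 0.11, padj = 0.37) first. Heat shock genes had 5 of 19 lower and none called, with the chaperone Hsph1 (-0.37 ± 0.12, padj = 0.394) first. Neuron and Schwann cell markers had 4 of 13 lower and none called, with neurofilament Nefl (-1.19 ± 0.39, padj = 0.398) and Snap25 (-0.89 ± 0.30, padj = 0.398). The mean level of that list ran from 4.15 to 4.88 among the air rats and from 3.97 to 4.17 among the exposed, which overlap. No gene was called in the lists of fatty acid oxidation, calcium handling, NRF2 antioxidant genes, the unfolded protein response, cell cycle and endothelial markers. Rat741 moved several of their medians. The median was 0.30 for NRF2 antioxidant genes and 0.08 without Rat741, 0.23 and 0.13 for the unfolded protein response, -0.13 and -0.07 for calcium handling, -0.06 and -0.01 for fatty acid oxidation, and -0.12 and -0.13 for cell cycle.

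Of 17 clock genes 0 were called, and 5 stood higher and 1 lower at an unadjusted p under 0.05. The output factors Hlf (1.31 ± 0.32, padj = 0.135) and Dbp (1.05 ± 0.36, padj = 0.419) and the repressors Per2 (1.22 ± 0.37, padj = 0.298) and Per3 (0.89 ± 0.30, padj = 0.4) were above air, and the activator Bmal1 was at -0.83 ± 0.30 (padj = 0.449). Hlf read 4.47, 4.56, 4.34 and 5.03 in the air rats and 6.58, 5.70, 5.84 and 5.51 in the exposed rats, with no overlap and Rat741 the highest. The clock hours at which rats were killed are not given in the sources used here.

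The calls at 24 h were largely not those of the first hours. Limma called 179 heart genes at 1 h (1.33%, and 0.99% higher), 448 at 3 h (3.33%) and 47 at 6 h (0.35%, with 2 air rats). Of those at 1 h and at 6 h 0 were called at 24 h, and of those at 3 h 1 was, Nmrk2. A call at 1 time and none at another does not show that the effects differ. Limma called a difference between the earlier effect and that at 24 h for 50 of the 179, 18 of the 448 and 0 of the 47. The genes that had risen at 1 h, by a median of 0.99, had a median of -0.08 at 24 h. Immediate early genes had a median of 1.36 at 1 h with 17 of 27 called, and of -0.30 at 24 h with 0 called. Integrated stress response genes had 6 of 23 called at 1 h and 0 at 24 h, where the median was 0.01, or -0.16 without Rat741. The times come from different rats, each with its own air group.

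Among the genes called at 24 h, Nmrk2 was at 0.78 ± 0.38 at 1 h, 1.40 ± 0.38 at 3 h and 1.54 ± 0.47 at 6 h, and Acta1 at 0.33 ± 0.13, 0.14 ± 0.13 and 0.24 ± 0.16.

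Genes with the smallest p at the earlier times are set beside their 24 h values, and do not stand for all genes called then. The stress factor Atf3 was at 4.16 ± 0.57 at 1 h, 4.43 ± 0.57 at 3 h, 1.13 ± 0.70 at 6 h and -0.90 ± 0.57 at 24 h. The glucocorticoid-induced Fkbp5 was at 2.0 at 3 h and at -0.25 ± 0.23 at 24 h, and the nuclear receptor Nr4a3 at 3.98 and -0.46 ± 0.39. Irf2bp2, Akap12 and Irs2, at 1.29, 1.89 and 2.09 at 1 h, were at -0.25, -0.11 and 0.19 at 24 h. Of the genes that led at 6 h, Pdk4, which blocks pyruvate use, was at 1.98 then and at 0.61 ± 0.20 (padj = 0.398) at 24 h. Uck2, Tnfrsf12a and Lmcd1 went from 2.03, 2.46 and 1.55 to 0.42, 0.18 and 0.00.

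**Figure D4:**
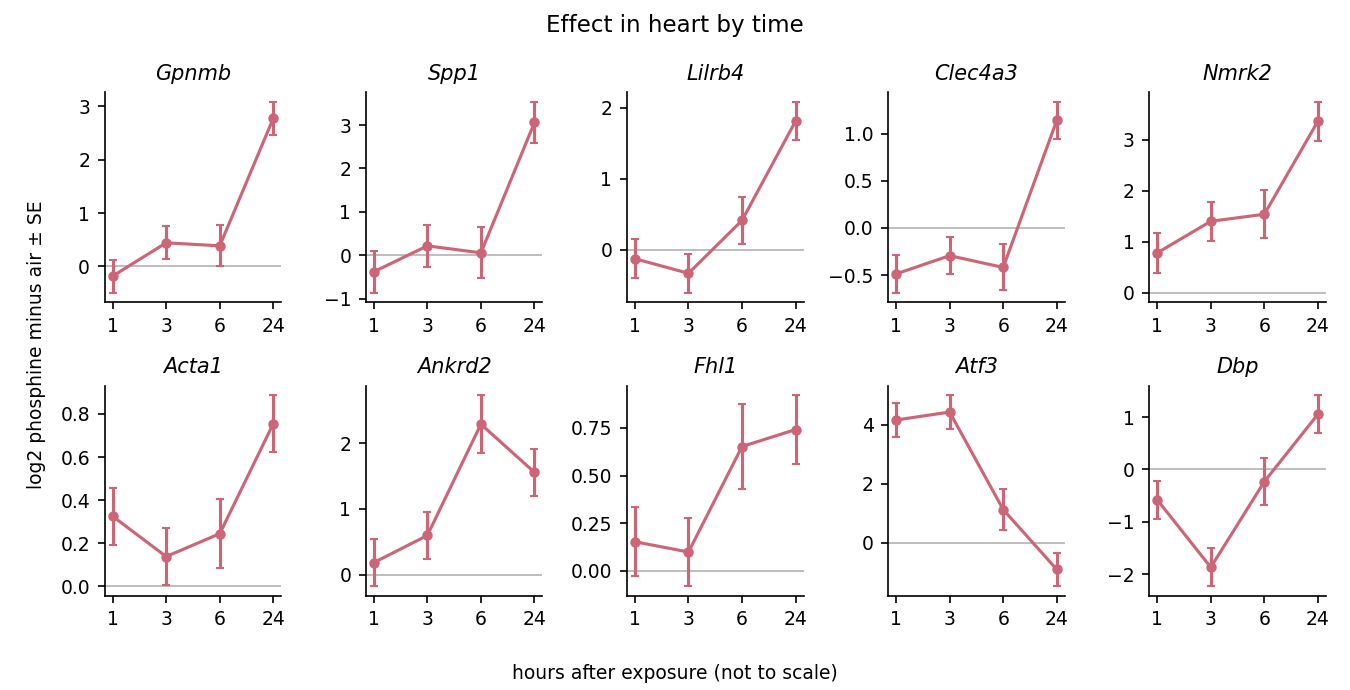
Log2 phosphine minus air ± SE of the limma fit in heart at 1, 3, 6 and 24 h for 10 genes (n = 4 exposed and 4 air rats, 2 air rats at 6 h). Gpnmb, Spp1, Lilrb4 and Clec4a3 stay at or below 0.44 until 6 h and lie between 1.14 and 3.06 at 24 h, whereas Atf3 goes from 4.43 at 3 h to -0.90.

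The difference of effects was tested directly. Between 24 h and 1 h 68 genes differed (0.506%), 22 with a higher effect at 24 h (0.164%) and 46 with a lower one (0.342%). Gpnmb's effect was 2.96 ± 0.44 higher at 24 h than at 1 h (padj = 0.00669), that of Clec4a3 1.63 (padj = 0.00896) and that of Evi2b 1.65 (padj = 0.00848). Lilrb4 (padj = 0.0204), Spp1 (padj = 0.0199), Serpinb1a (padj = 0.0278), Tlr8 (padj = 0.0147) and Nmrk2 (padj = 0.0272) passed as well. Cd68 (padj = 0.0501), Clec7a (padj = 0.306), Acta1 (padj = 0.473) and Rab3b (padj = 0.149) did not. In the other direction were Atf3 (-5.06, padj = 0.00694), the actin-binding Abra (-2.64, padj = 0.00848) and the splicing factor Srsf5 (-0.91, padj = 0.00848). The count of 68 was 22 without Rat712, 13 without Rat719, 29 without Rat721, 30 without Rat726, 31 without Rat742, 31 without Rat744, 34 without Rat745, 28 without Rat748, 31 without Rat750 and 110 without Rat729.

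Between 24 h and 3 h 27 genes differed (0.201%), 18 with a higher effect at 24 h (0.134%) and 9 with a lower one (0.067%). Gpnmb (padj = 0.0146), Lilrb4 (padj = 0.0108), Clec4a3 (padj = 0.0212), Tlr8 (padj = 0.0108) and Unc93b1 (padj = 0.0114) were among them, with Spp1 (padj = 0.0829) and Nmrk2 (padj = 0.163) outside. Dbp, at -1.87 ± 0.36 at 3 h, had an effect 2.92 higher at 24 h (padj = 0.0108), and Nr1d2, another clock gene, one 1.35 higher (padj = 0.0108). The count was 121 without Rat728, 55 without Rat729, 17 without Rat731, 69 without Rat741, 16 without Rat742 and 16 without Rat745.

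Between 24 h and 6 h limma called 0 genes, with 1007 (7.49%) at an unadjusted p under 0.05, and array quality weights gave 174. Without Rat729 it called 17, without Rat741 5, without Rat789 2, and 1 each without Rat721, Rat758 or Rat760. Gpnmb was at 0.39 ± 0.38 at 6 h against 2.78 at 24 h, and Spp1 at 0.05 ± 0.59 against 3.06. Ankrd2 was at 2.29 ± 0.44 (padj = 0.0191) and Timp1 at 1.99 ± 0.46 (padj = 0.0536) at 6 h.

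The other solid tissues of the same 8 rats allow a test of whether the change differed in heart. In a limma fit of 40 arrays of heart, brain, kidney, liver and lung at 24 h, the effect in heart differed from the mean effect of the other 4 tissues in 182 genes (1.35%), 116 higher in heart (0.863%) and 66 lower (0.491%). Of the 11 genes called in heart 10 were among them with the same sign, and Acta1 (0.85 ± 0.33, padj = 0.23) was not. The heart part of this test uses the same 8 arrays that gave the 11 calls, so these 10 are not independent support. For Nmrk2 the difference was 3.28 ± 0.30 (padj = 1.23e-08), with effects of -0.02 in brain, -0.01 in kidney, -0.11 in liver and 0.46 in lung. For Gpnmb it was 2.67 ± 0.37 (padj = 6.96e-05), with -0.15, 0.20, 0.37 and 0.03 in the same tissues, and for Spp1 3.06 ± 0.64 (padj = 0.00849), with -0.65, -0.04, 0.39 and 0.31. The count of 182 was 66 without Rat744, 100 without Rat745, 73 without Rat749 and 84 without Rat751, and 97 without the heart arrays of Rat741 and Rat749 and the liver array of Rat741, on which kidney tubule markers stood 5.27 above the median liver. With the rat as a block, since the 5 tissues of a rat are paired, it was 191 (1.42%). By subtraction within each rat limma called 0, with 1329 genes (9.89%) at an unadjusted p under 0.05.

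That test also called genes that heart alone left uncalled. Higher in effect in heart were the lysosomal beta-glucuronidase Gusb (0.89 ± 0.12, padj = 6.96e-05), Abhd1 (1.16 ± 0.11, padj = 1.23e-08), the actin-binding Shroom2 (0.87 ± 0.12, padj = 6.96e-05), Plin2 (0.96 ± 0.14, padj = 0.000119), Tor1aip2 (0.72 ± 0.11, padj = 0.000137) and Spryd7 (0.72 ± 0.10, padj = 0.000116). Gusb read 5.95 to 6.35 in air and 6.90 to 7.18 in exposed hearts. Lower in heart were Cntnap2, an adhesion protein of axons (-1.23 ± 0.17, padj = 9.29e-05), and Chrna1, the muscle acetylcholine receptor subunit (-1.39 ± 0.21, padj = 0.000145). Chrna1 read 3.98 to 5.22 in air hearts and 2.74 to 3.68 in exposed hearts, near the low end of the scale. Ankrd2 (1.54 ± 0.32, padj = 0.0074), Timp1 (1.48 ± 0.32, padj = 0.0121) and Hlf (1.28 ± 0.20, padj = 0.000276) also passed, whereas Per2 (0.79 ± 0.28, padj = 0.173) and Dbp (0.50 ± 0.22, padj = 0.319) did not, Dbp being at 1.12 in lung. On 3 of the 40 arrays the mean of another organ's markers stood at least 3 above the median of its tissue. These were the hearts of Rat741 and Rat749 and the liver of Rat741. Without them Gusb (0.80, padj = 0.00214), Abhd1 (0.98, padj = 3.17e-06), Chrna1 (-1.59, padj = 0.000345) and Ankrd2 (1.95, padj = 5.75e-07) were called. Rab3b was not (-0.71, padj = 0.295). Other hearts kept in this fit, such as those of Rat748 and the air rat Rat751, still held raised Alb.

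**Figure D5:**
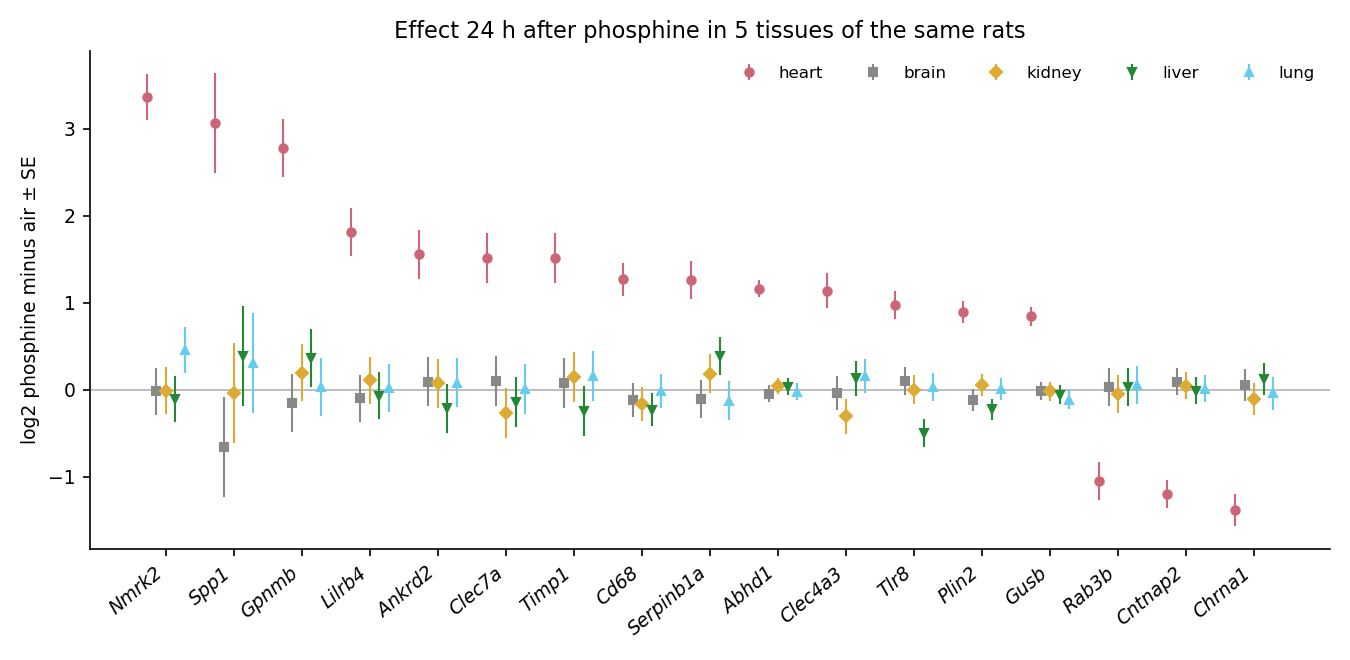
Log2 phosphine minus air ± SE at 24 h for 17 genes in heart (red), brain, kidney, liver and lung of the same 8 rats, from 1 limma fit of 40 arrays. Heart values run from -1.39 for Chrna1 to 3.36 for Nmrk2, and those of the other tissues from -0.65 for Spp1 in brain to 0.46 for Nmrk2 in lung.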

How the data were processed

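RNA of each tissue was amplified and labelled from its 3' end and hybridised to 1-colour Affymetrix rat arrays, per the labels' protocols. The authors deposited log2 signals, 1 for each probe set, made with RMA and Partek, per the submitters' processing notes. Their versions were not stated there. The values run from 1.74 to 14.13. Of 31139 probe sets 97 are controls and 19062 list 1 gene. Of the 13437 genes, 9452 have 1 probe set and 3985 several, of which the one with the highest mean over the 174 arrays was used. The number of arrays limits the precision. The labels used here give no batch.

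Limma 3.58.1 (R 4.3.3) fitted 1 mean per group over the 30 heart arrays (8 groups), or over 40 arrays of 5 tissues, with Benjamini-Hochberg adjustment across all genes. The script was checked on simulated data. The members and gene lists were chosen with earlier results of these data known. Named were all called genes, then those of smallest p up to 30 in all (higher group mean above 4.41, the median of all probe sets), any member of 4 lists, up to 4 of each other list, 10 genes for each difference of effects and 5 for each earlier time. Bmal1, and Ankrd2, Timp1, Hlf, Per2 and Dbp among the tissues, were named after their values were seen, as were Spp1, Nmrk2 and other 24 h calls in the differences of effects. Other settings tried were quantile normalization, median centring, leaving out dim genes (40th percentile), the mean of probe sets, trend and robust eBayes, array weights, the 24 h arrays alone, pooled air and left-out rats. Chosen after seeing the data were the hepatocyte covariate, leaving out Rat729 with Rat741, the fits without Rat741 that were quantile-normalized or on the 24 h arrays alone, and single arrays left out among the tissues. So were, for the 24 h comparison, leaving out a rat of another time and, for the differences of effects, median centring, the mean of probe sets, trend and robust eBayes and leaving out a rat of neither time compared. That 5 tissues share a rat comes from the rat numbers in the labels, and the correlation within rats was 0.013. Python 3.11.15 drew the figures.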

Additional observations from a re-analysis of the deposited data

Results flagged for a closer look

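Of 64 groups of 4 rats examined, 6 had a rat far from the others, where chance gives about 1 in 20. Sftpc was examined because an exposed array was already known to carry alveolar transcripts, so its groups do not bear on that rate. Among exposed hearts these were Selenoh in Rat748 (9.35, others 9.26 to 9.28), C1h19orf81 in Rat749 (5.75, others 6.64 to 6.72) and Sftpc in Rat749 (12.11, others 2.64 to 2.92). Among air hearts they were Mccc1 in Rat751 (9.22, others 9.02 to 9.04), Abhd1 in Rat745 (5.43, others 5.61 to 5.64) and Sftpc in Rat745 (5.49, others 2.81 to 2.89).

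Effects differed between 24 h and 1 h, by the test of the difference itself, in Gpnmb (2.96), Evi2b (1.65) and Clec4a3 (1.63), higher at 24 h, and in Irf2bp2 (-1.54), Atf3 (-5.06), Srsf5 (-0.91), Abra (-2.64), Srsf2 (-0.70), Akap12 (-2.0) and the deubiquitinase Otud1 (-3.43), lower at 24 h. Between 24 h and 3 h they differed in the muscle protein Ky (1.82), Dbp (2.92), Dock9 (1.0) and Nr1d2 (1.35), higher at 24 h, and in Nr4a3 (-4.44), Fkbp5 (-2.25), Atf3 (-5.33), the hyaluronidase Hyal2 (-1.06), Abra (-2.70) and Fam107a (-2.50), lower.

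Effects differed between heart and the mean of the other 4 tissues at 24 h in Nmrk2 (3.28), Abhd1 (1.16), Gusb (0.89), Shroom2 (0.87), Gpnmb (2.67), Spryd7 (0.72), Plin2 (0.96) and Tor1aip2 (0.72), higher in heart, and in Cntnap2 (-1.23) and Chrna1 (-1.39), lower.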

How the results depend on the processing

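The 30 genes named by p at 24 h had the same sign in every setting run, up to 44 for each gene, but calls did not hold. Gpnmb, Nmrk2 and Spp1 were called in 43 of 44 settings and Lilrb4 in 42 of 43 (highest padj 0.158, 0.157, 0.158 and 0.195), and Tlr8, Rab3b and Clec7a in 18, 14 and 13. The 24 h count of 11 was 0 with the 24 h arrays alone (limma, with 1322 genes at an unadjusted p under 0.05) and 39 with these without Rat741. It was 19 with the mean of probe sets, 20 with trend and robust eBayes, 260 with array weights, 91 with pooled air, 33 with quantile normalization without Rat741, 77 without Rat729 and Rat741, 26 without Rat749 as well, 18 with the hepatocyte covariate, and 4 to 63 leaving out 1 rat. The 24 h minus 1 h count of 68 was 202 with array weights, 127 without Rat729 and Rat741, and 13 to 110 leaving out 1 rat. The 24 h minus 3 h count of 27 was 179 with array weights, 48 without Rat741 and Rat749, 89 without Rat729 and Rat741, 68 without Rat749 as well, 61 with the covariate, and 16 to 121 leaving out 1 rat. The 24 h minus 6 h count of 0 was 2 without dim genes, 7 with the mean of probe sets, 174 with array weights, 2 without Rat741 and Rat749, 16 without Rat729 and Rat741, 7 without Rat749 as well, 1 with the covariate, and 0 to 17 leaving out 1 rat. The heart against other tissues count of 182 was 81 without the heart arrays of Rat741 and Rat749. It was 97 without the liver array of Rat741 as well, and 66 to 246 leaving out 1 rat. With the rat as a replicate block it was 191, and 0 with the block as subtraction within each rat. For RNA integrity, GAPDH alone differed by 0.112 where the mean of 3 transcripts differed by 0.0858. The causes were not tested.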
